A study of Mus musculus with 9 samples.

Results

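Oxidative phosphorylation was followed through the transcripts of 102 genes, 13 encoded by the mitochondrial genome and 89 by nuclear genes, out of 45777 genes in the count table. The members were chosen by name and by level. All 13 mitochondrial protein genes were taken, with the protein-coding genes named as subunits of complexes I to V or as Nduf assembly factors, at a mean CPM, that is counts scaled to a common library size, of 1 or more over the 9 libraries. Of 95 nuclear genes that matched by name, 6 fell below that level. Cox6b2 at a mean of 0.951 CPM lay just outside it and Cox4i2 at 2.39 CPM just inside it. All 102 members passed the filter on low counts and were among the 16373 genes tested.

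The libraries were bulk RNA from CD45+ cells, that is leukocytes, isolated on magnetic beads from tumors that a fibrosarcoma line of the mouse, WEHI-164, had formed under the skin of BALB/c mice. There were 3 libraries each from control mice, from mice given doxorubicin into the tumor (5 mg/kg) and from mice given doxorubicin with ADU-S100 (25 μg), a cyclic dinucleotide that activates STING (below, the combination). Tumors were taken 7 days after treatment, all mice carried the same graft, and the age and sex of the mice are not given in the sources used here. The libraries are described as biological triplicates, and it is not stated whether each came from 1 mouse, so p-values measure the spread between these libraries.

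Oxidative phosphorylation is run by the electron transport chain (complexes I to IV) and the ATP synthase (complex V) of the inner mitochondrial membrane. Complex II is encoded by nuclear genes alone, whereas the other complexes join subunits from both genomes. The mitochondrial mRNAs are cut from long transcripts that cover nearly the whole circular genome, while each nuclear subunit has its own promoter, many of which are read by the factors NRF1, GABP, YY1 and the estrogen-related receptors. Leukocytes shift between this pathway and glycolysis as they are activated.

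The libraries held 50110494 to 69456603 counts each. Of these, 635249 to 8365914 counts fell on the mitochondrially encoded members and 380589 to 753504 on the nuclear members, so for the summed values the libraries differed by far more than counting error. Ptprc, which encodes CD45, lay between 189 and 627 CPM. The mean log2 CPM of 24 markers of fibroblasts and sarcoma cells ranged from 2.71 to 5.96 and was highest within each group in control 2, doxorubicin 1 and doxorubicin + ADU-S100 3. The 12 markers of monocytes and macrophages had a mean log2 CPM of 8.95 to 10.1, so that the defining leukocyte genes were present in each library. Values below are CPM after TMM scaling, which sets the libraries to a common level for most genes, unless a share of all counts is named.

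The sequences shown here belong to members that are named in the results below. On the mitochondrial genome ATP8 and ATP6, both subunits of the ATP synthase, share 43 bases (chrM:7927-7969, GRCm38), and ND4L and ND4, both subunits of complex I, share 7 bases (chrM:10167-10173). Each pair lies on 1 transcript, so that reads in the shared bases cannot be assigned to one gene. The shared bases are in capitals, with the flanking coding sequence in lower case (chrM:7912-7984 and chrM:10152-10188).
ATP8 and ATP6: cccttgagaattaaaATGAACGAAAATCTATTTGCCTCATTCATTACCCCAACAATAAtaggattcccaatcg
ND4L and ND4: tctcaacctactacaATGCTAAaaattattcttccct

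For the nuclear members, the 150 bases before the RefSeq transcription start are given for 4 genes, 3 named for their position in a comparison and Sdha for its 3 matches to the NRF1 motif, chosen after the search (RefSeq, GRCm38.p6). Ndufs5 lies at chr4:123718187-123718336, Uqcrh at chr4:116075071-116075220 and Sdha at chr13:74350241-74350390, all on the minus strand, and Ndufaf4 at chr4:24897933-24898082 on the plus strand. Capitals mark matches to the NRF1 motif GCGCANGCG or, in Uqcrh, to the ETS motif CCGGAAGT bound by GABP, on either strand. In Ndufaf4 a match on each strand overlaps the other.
Ndufs5: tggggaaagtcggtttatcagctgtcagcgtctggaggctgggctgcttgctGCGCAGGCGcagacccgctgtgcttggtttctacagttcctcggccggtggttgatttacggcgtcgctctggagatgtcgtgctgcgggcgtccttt
Uqcrh: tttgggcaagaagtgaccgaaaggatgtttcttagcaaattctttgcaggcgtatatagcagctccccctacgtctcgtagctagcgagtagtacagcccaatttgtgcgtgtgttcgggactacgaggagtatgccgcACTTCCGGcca
Sdha: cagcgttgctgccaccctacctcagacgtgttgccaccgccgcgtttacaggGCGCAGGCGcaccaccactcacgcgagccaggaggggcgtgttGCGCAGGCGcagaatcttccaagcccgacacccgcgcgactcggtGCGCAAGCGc
Ndufaf4: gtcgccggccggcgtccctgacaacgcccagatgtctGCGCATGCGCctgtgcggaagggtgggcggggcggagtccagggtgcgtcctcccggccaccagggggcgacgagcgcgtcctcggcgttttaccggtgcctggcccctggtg

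A promoter was given for 74 of the 89 nuclear members, from 250 bases before the start to 50 after it. The NRF1 motif was found in 22 of the 74 genes (29.7%), against 7.03% of 27025 genes with a promoter in the same table. The YY1 motif AAGATGGCG was found in 8 (10.8%, against 1.64%), the ETS motif in 5 (6.76%, against 4.31%), the cyclic AMP response element TGACGTCA in 4 (5.41%, against 2.03%) and the motif TCAAGGTCA of the estrogen-related receptors in 2 (2.7%, against 0.466%). None of these motifs is contained in another. A match is a run of letters and was not read as a bound site. The 22 members with the NRF1 motif had a median log2 fold change of 0.34 for the combination versus control, and the 52 without it had 0.34.

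The 2 sets behaved differently across the libraries. The 13 mitochondrial members took a share of all counts that spanned 10.8-fold, and the 89 nuclear members a share that spanned 1.54-fold. The mitochondrial share was 2.22%, 7.37% and 4.14% in control 1, 2 and 3. It was 6.70%, 1.16% and 1.97% in doxorubicin 1, 2 and 3, and 12.6%, 3.25% and 1.86% in doxorubicin + ADU-S100 1, 2 and 3. Each group thus held 1 library with a high share, and the groups overlapped throughout. As in any bulk sample, fewer cells of a type and less RNA per cell cannot be told apart here.

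The nuclear share was 0.809%, 0.868% and 1.15% in the controls. It was 0.76%, 1.17% and 1.00% with doxorubicin, and 1.07%, 0.917% and 1.08% with doxorubicin + ADU-S100. The highest and the lowest nuclear share both came from the doxorubicin group. Expressed per count outside the mitochondrial genome, the nuclear share ran from 0.816% in doxorubicin 1 to 1.23% in doxorubicin + ADU-S100 1.

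The orders of the libraries differed between the sets. Doxorubicin 2 had the lowest mitochondrial share and the highest nuclear share, and doxorubicin 1 had the third highest mitochondrial share and the lowest nuclear share. Doxorubicin + ADU-S100 1 was highest in the mitochondrial set and, after TMM scaling, also in the nuclear set. The ratio of mitochondrial to nuclear counts was 0.995 in doxorubicin 2 and 11.8 in doxorubicin + ADU-S100 1. On the log2 scale its mean was 2.13 ± 0.85 in the controls, 1.37 ± 1.61 with doxorubicin and 2.05 ± 1.41 with doxorubicin + ADU-S100 (SD, n = 3). The differences of these means, −0.08 for the combination versus control, 0.68 for the combination versus doxorubicin and −0.76 for doxorubicin versus control, were smaller than the larger SD of each pair.

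**Figure D1:**
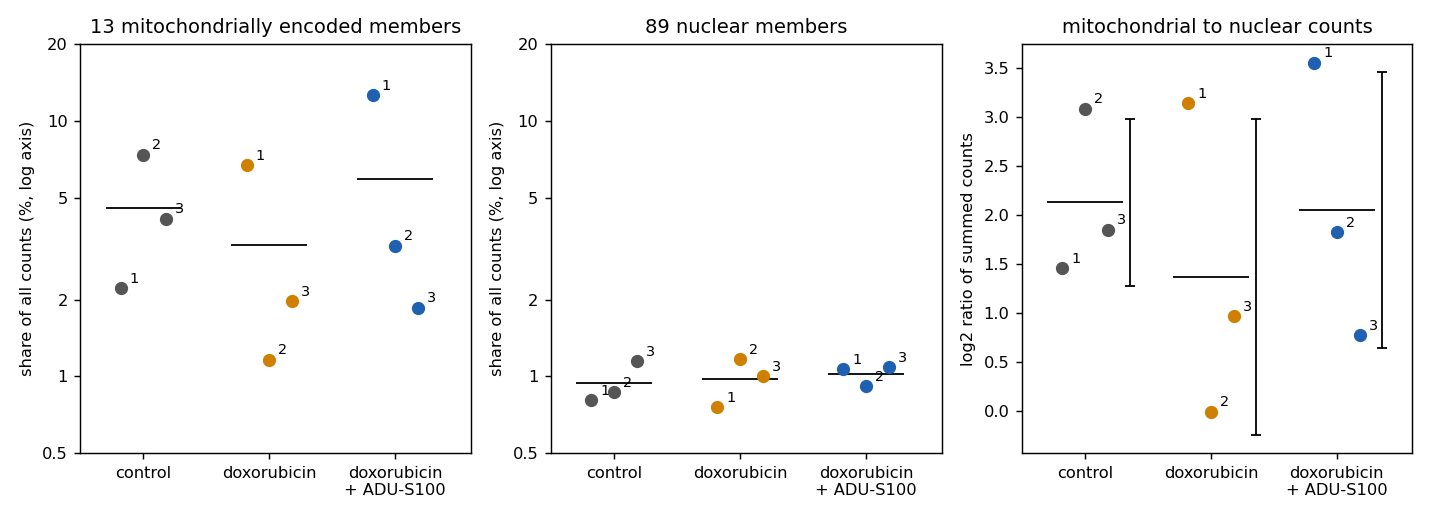
Share of all counts taken by the 13 mitochondrially encoded members (left, log axis, %) and the 89 nuclear members (middle, same axis), and the log2 ratio of their summed counts (right), for 3 libraries a group; points carry the replicate number, horizontal lines are group means and bars at the right are ± SD. The mitochondrial share runs from 1.16% to 12.6% with 1 high library in each group, while the nuclear share stays between 0.76% and 1.17%.

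Levels per kilobase, on the CPM scale, used the mRNA length for nuclear members and the gene length for mitochondrial members. The median mitochondrial member lay at 775 in doxorubicin 2 and at 9357 in doxorubicin + ADU-S100 1. The median of the 87 nuclear members with a known mRNA length lay between 65.2 in doxorubicin 1 and 127 in doxorubicin + ADU-S100 1. Within the mitochondrial set ND6, the only subunit read from the light strand, had the lowest level per kilobase in each library, from 41.6 to 656. COX1, the catalytic core of complex IV, had the highest, from 2674 to 40256.

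COX1 shows the pattern of the set. Its CPM was 8179, 26113 and 14704 in the controls. It was 24431, 4131 and 6214 with doxorubicin, and 62195, 12744 and 6419 with doxorubicin + ADU-S100. The values of the 3 groups overlapped, and the spread within the last group was wider than the gap between any 2 group means. Of the 13 genes, 12 were highest in doxorubicin + ADU-S100 1 and 11 were lowest in doxorubicin 2. The exceptions were ATP8, highest in control 2, ND3, lowest in control 1, and COX3, lowest in doxorubicin + ADU-S100 3. The ratio of the highest to the lowest library ran from 7.69 for ATP8 to 17.2 for ND4L with a median of 14.3. For the nuclear members it ran from 1.30 for Uqcrc2, a core protein of complex III, to 3.82 for Cox4i2, with a median of 2.21. The median over 11825 protein-coding genes at 1 CPM or more was 2.05.

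**Figure D2:**
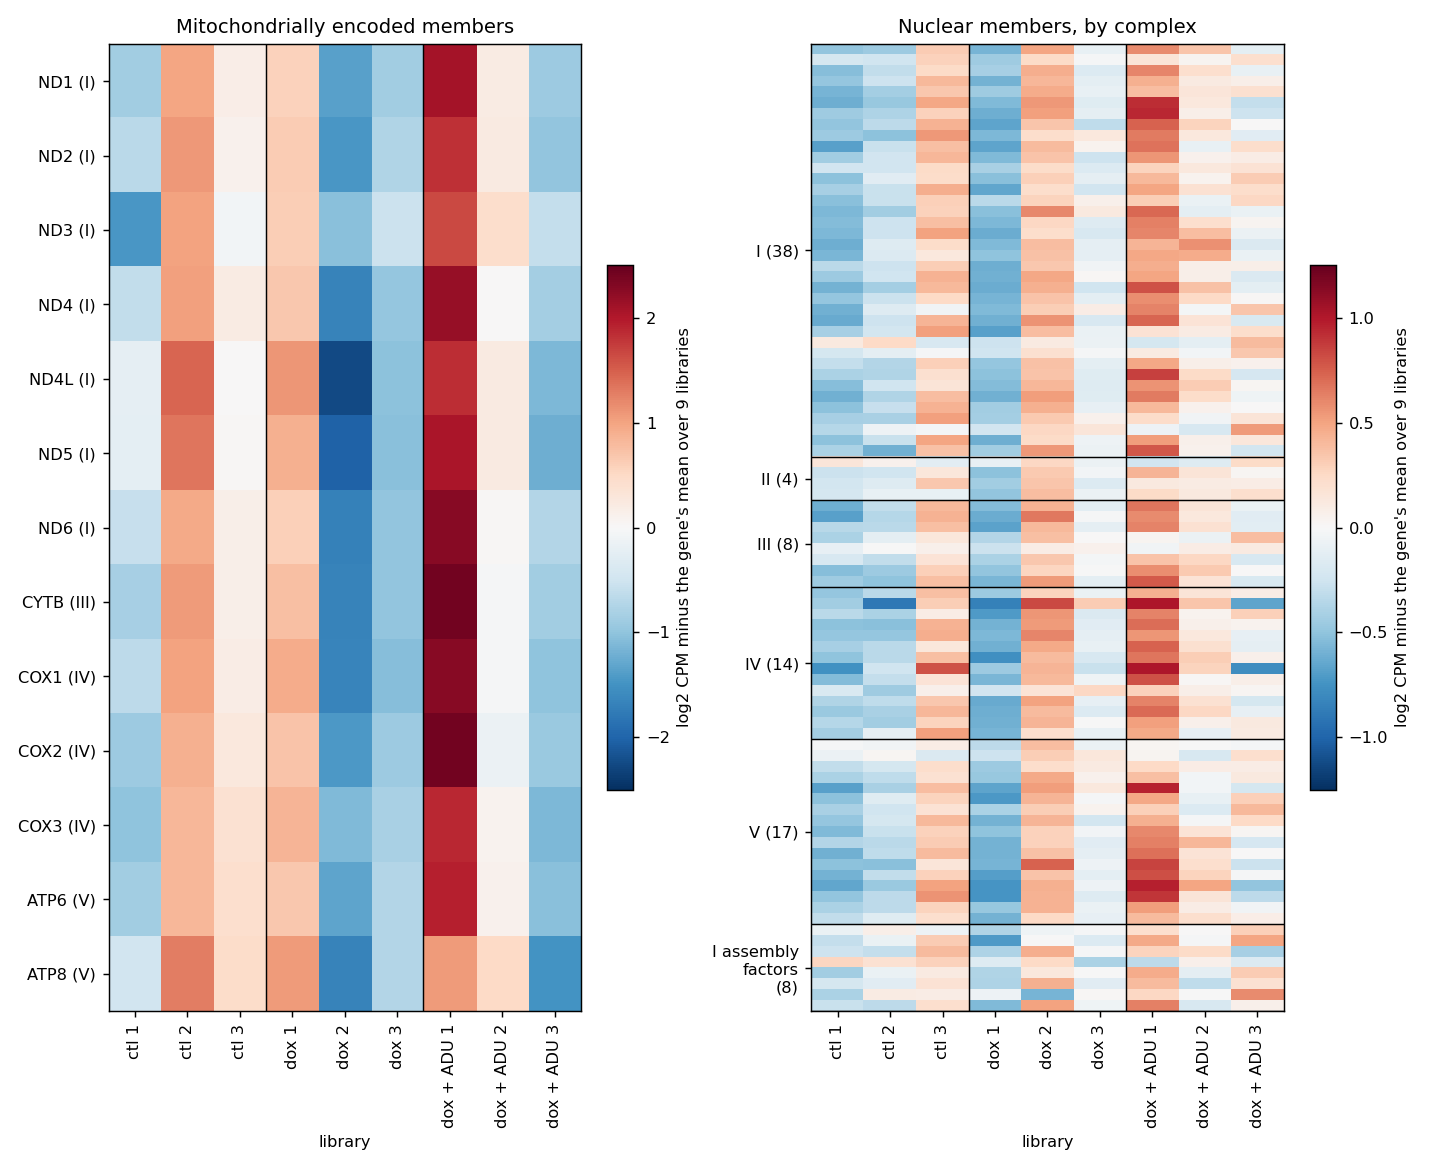
Log2 CPM of each member minus its own mean over the 9 libraries (colour, with a different range in each panel), for the 13 mitochondrially encoded members with their complex (left) and the 89 nuclear members grouped by complex (right); ctl, control; dox, doxorubicin; ADU, ADU-S100. Columns of like colour run through all complexes, and the columns differ between the sets, with doxorubicin 2 low at the left and high at the right.

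No mitochondrially encoded member passed the test in any comparison. For the combination versus control, edgeR's quasi-likelihood test called 0 of 16373 genes at an adjusted p under 0.05 (0%), and 4.44% of genes had an unadjusted p under 0.05. Of the 13 mitochondrial members 0 reached either level. Their log2 fold changes ran from −0.22 (ATP8) to 0.92 (COX2, which carries the copper site that takes electrons from cytochrome c), with a median of 0.63 against 0.06 over all genes tested. The standard errors had a median of 0.83 and were thus larger than most of the fold changes. Without doxorubicin + ADU-S100 1 the median was −0.76, so that 1 library set its sign. With the library of the highest fibroblast mean left out of each group the median was 1.61. Then 6 mitochondrial members had an unadjusted p under 0.05, where 8.67% of all genes did, with 0 past the adjusted threshold. This omission took out the highest mitochondrial share of the controls (7.37%) and the lowest with the combination (1.86%), which by itself raises the median.

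The complexes did not separate within the mitochondrial set. CYTB, the only mitochondrial subunit of complex III, had 1585, 5853 and 3122 CPM in the controls and 14953, 2764 and 1541 CPM with the combination (log2 fold change 0.87, SE 0.92). For complex I the log2 fold changes against control were 0.70 for ND1, 0.45 for ND2, 0.63 for ND3, 0.66 for ND4, 0.19 for ND4L, 0.39 for ND5 and 0.82 for ND6, all subunits of its membrane arm. COX1 had 0.73 and COX3 0.54 in complex IV, and ATP6, which forms the proton path of the ATP synthase, had 0.57. ATP6 and ATP8, neighbours on 1 transcript, thus had opposite signs, and in doxorubicin + ADU-S100 1 ATP6 was at 14306 CPM and ATP8 at 1909 CPM, below its 2197 CPM in control 2.

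Against doxorubicin alone, all 13 mitochondrial members had positive log2 fold changes with doxorubicin + ADU-S100, from 0.37 (ATP8) to 1.49 (ND6), with a median of 1.14 against 0.07 over all genes tested. The background was 0% at the adjusted and 2.75% at the unadjusted level, and by edgeR 0 of the 13 reached either. By limma-voom with quality weights 10 of the 13 had an unadjusted p under 0.05, where 9.03% of all genes did. None of these passed the adjusted threshold. ND6, a complex I subunit, had the smallest p of the set, with 105, 21.6 and 35.2 CPM with doxorubicin and 340, 71.6 and 42.2 CPM with doxorubicin + ADU-S100 (log2 fold change 1.49, SE 0.84, edgeR adjusted p = 0.999). The highest doxorubicin library lay above 2 of the 3 libraries of the other group. The median was −0.20 without doxorubicin + ADU-S100 1, and it was 2.29 without doxorubicin 1. With the library of the highest fibroblast mean left out of each group it was 2.73. Then 13 mitochondrial members had an unadjusted p under 0.05 by edgeR, where 7.5% of all genes did, with 0 past the adjusted threshold. This omission took out the highest mitochondrial share with doxorubicin (6.70%) and the lowest with doxorubicin + ADU-S100 (1.86%), which by itself raises the median. The 13 members also varied together by library. The part of fibroblasts and sarcoma cells in the result cannot be read from the omission and was not tested otherwise.

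In doxorubicin versus control the 13 members had negative log2 fold changes, from −0.76 (ND5) to −0.30 (ND3), with a median of −0.59 against −0.01 over all genes. The background was 0% at the adjusted and 0.708% at the unadjusted level, and 0 of the 13 reached either. The median was −0.03 without control 2, −0.19 without doxorubicin 2 and −1.60 without doxorubicin 1. The 3 comparisons share their groups of libraries, and their values are therefore not independent of each other.

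**Figure D3:**
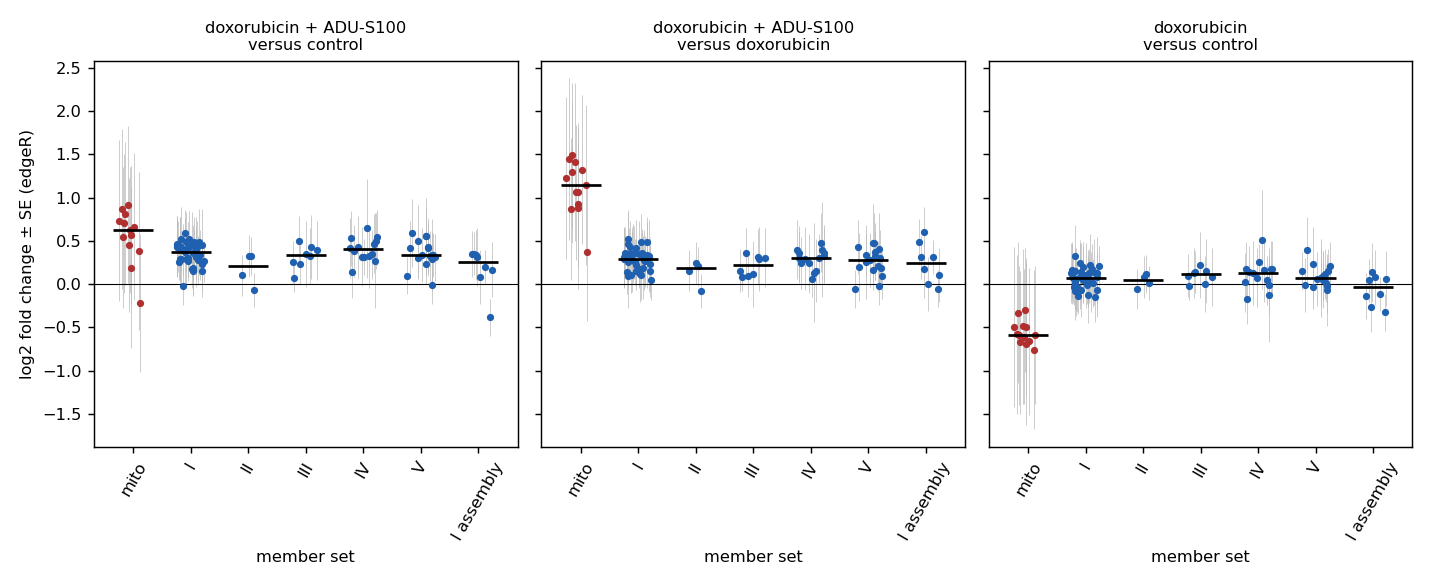
Log2 fold change (edgeR, points) with its SE (grey bars) of every member in the 3 comparisons, for the mitochondrially encoded members (red) and the nuclear members by complex (blue); black lines are medians. The mitochondrial medians are 0.63, 1.14 and −0.59 and the nuclear ones 0.34, 0.29 and 0.08, with 0 members past the test.

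The nuclear members gave smaller differences with smaller errors. For the combination versus control 85 of 89 had a positive value and the median was 0.34, with a median SE of 0.30. Against doxorubicin 85 of 89 were positive, with a median of 0.29, and in doxorubicin versus control 66 of 89, with a median of 0.08. Of the 16373 genes tested, 9314, 9591 and 8003 were positive in the same order. The members moved together by library, so their signs are not independent. By edgeR 0 of the 89 reached an adjusted or an unadjusted p under 0.05 in any of the 3 comparisons. The median of the first comparison was 0.65 without control 3 and 0.13 without doxorubicin + ADU-S100 1. That of the second was 0.07 without doxorubicin 1 and 0.54 without doxorubicin 2, and that of the third was −0.19 without doxorubicin 2 and 0.35 without control 3. DESeq2 called 0 members at an adjusted p under 0.05 and, at an unadjusted one, 0, 1 and 0 in the order given. Over all genes DESeq2 called 27, 9 and 2 at the adjusted level and put 5.45%, 3.32% and 1.03% at the unadjusted one.

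Complex I, which takes electrons from NADH, had 38 nuclear members with a median log2 fold change of 0.37 for the combination versus control, 0.29 against doxorubicin and 0.07 in doxorubicin versus control. Ndufv1, which binds NADH, had 63.7, 78.4 and 80.5 CPM in the controls. It had 69.4, 97.8 and 90.9 CPM with doxorubicin, and 78.2, 71.2 and 118 CPM with doxorubicin + ADU-S100. Its values overlapped among all groups. Ndufs1, the large iron-sulfur subunit, had 76.6, 83.7 and 61.6 CPM in the controls and 60.7, 64.9 and 92.5 CPM with doxorubicin + ADU-S100. It was 1 of 4 nuclear members with a negative log2 fold change in that comparison (−0.02), beside Ndufaf4, Sdha and Atp5a1.

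Ndufb9, an accessory subunit of the membrane arm, had the smallest p of all members against control. Its CPM was 49.2, 66.7 and 72.5 in the controls and 115, 73.3 and 95.0 with doxorubicin + ADU-S100. The groups did not overlap (log2 fold change 0.59, SE 0.27, edgeR adjusted p = 0.948). The gap between the highest control and the lowest treated library was under 1 CPM, and the doxorubicin libraries at 50.8, 92.6 and 79.7 CPM lay across both groups. Ndufs5, a small subunit of complex I, had 28.2, 34.3 and 45.6 CPM in the controls and 60.1, 50.6 and 41.5 CPM with doxorubicin + ADU-S100, and its groups overlapped.

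Among the 8 complex I assembly factors, which are not part of the finished enzyme, the values were less alike. Ndufaf4 was the lowest nuclear member in both comparisons with control. Its CPM was 20.1, 19.0 and 20.4 in the controls, 14.9, 19.8 and 12.7 with doxorubicin and 13.3, 17.5 and 14.8 with doxorubicin + ADU-S100. All libraries of the last group lay below all controls (log2 fold change −0.38, SE 0.21, edgeR adjusted p = 0.948), while the doxorubicin group overlapped the controls (−0.33, SE 0.21, adjusted p = 1.00). Ndufaf2 had the smallest nuclear p against doxorubicin, with 5.13, 8.38 and 7.43 CPM with doxorubicin and 11.7, 8.33 and 11.8 CPM with doxorubicin + ADU-S100 (log2 fold change 0.60, SE 0.29, edgeR adjusted p = 0.999). Its groups overlapped at 1 library on each side. Ndufaf1, another assembly factor, was the only member whose groups did not overlap in that comparison, with 9.46, 11.8 and 12.2 CPM against 14.2, 12.4 and 15.1 CPM.

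The other nuclear members with the smallest p-values of a comparison, none of them under 0.05 by edgeR, all had overlapping groups. Against doxorubicin these were the assembly factor Ndufaf7 (log2 fold change 0.49, SE 0.26), Ndufb10 (0.49, SE 0.29) and Ndufa5 (0.52, SE 0.34), both accessory subunits of complex I. In doxorubicin versus control they were Cox7a2l, which helps to join complexes III and IV (0.25, SE 0.21), and Atp5k (0.39, SE 0.39). Ndufa4, once assigned to complex I and now to complex IV, had 92.4 ± 31.5, 82.2 ± 21.8 and 101 ± 21.1 CPM in the 3 groups (SD, n = 3).

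Over all members, 2 were higher without overlap in doxorubicin + ADU-S100 than in control (Ndufb9 and Sdhd), where 4.39% of all genes tested were, and 1 was lower (Ndufaf4), where 3.95% were. Against doxorubicin 1 was higher and 0 lower, with 3.53% and 2.63% of all genes. In doxorubicin versus control 0 were higher and 0 lower, with 1.77% and 2.63% of all genes. These shares of the members were below those of all genes in each direction.

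Complex II, succinate dehydrogenase, also works in the tricarboxylic acid cycle. Sdha, its flavoprotein, had 170, 159 and 140 CPM in the controls. It had 144, 184 and 147 CPM with doxorubicin, and 130, 137 and 181 CPM with doxorubicin + ADU-S100. It was the lowest nuclear member against doxorubicin (log2 fold change −0.08). Sdhd, a membrane anchor, was at 140, 152 and 152 CPM in the controls and at 192, 177 and 188 CPM with doxorubicin + ADU-S100, without overlap (log2 fold change 0.33). With doxorubicin alone it spanned 115 to 213 CPM and overlapped both. Sdhb, the iron-sulfur subunit, and Sdhc, the other anchor, had group means of 97.9 ± 16.4 and 118 ± 26.4 CPM in the controls and 123 ± 17.7 and 126 ± 1.27 CPM with doxorubicin + ADU-S100 (SD, n = 3), and their groups overlapped.

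Complex III passes electrons to cytochrome c, and its 8 nuclear members had a median log2 fold change of 0.33 for the combination versus control. Uqcrh, its hinge protein, had 115, 121 and 204 CPM in the controls and 248, 208 and 166 CPM with doxorubicin + ADU-S100. Control 3 lay above 1 of the treated libraries, and the log2 fold change was 0.50 (SE 0.29, edgeR adjusted p = 0.948). Uqcrc1, a core protein, and Uqcrfs1, the Rieske iron-sulfur protein, had 166 ± 31.1 and 109 ± 19.9 CPM in the controls and 196 ± 33.4 and 130 ± 25.2 CPM with doxorubicin + ADU-S100 (SD, n = 3).

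Complex IV, cytochrome c oxidase, had 14 nuclear members with medians of 0.40, 0.30 and 0.13 in the 3 comparisons. Cox5a, a subunit of the core assembly, had 132, 127 and 178 CPM in the controls and 258, 173 and 206 CPM with doxorubicin + ADU-S100. The lowest treated library lay just below the highest control (log2 fold change 0.54, SE 0.32, edgeR adjusted p = 0.948). Several subunits have a second form used in particular tissues. The general forms Cox4i1, Cox6a1, Cox7a2 and Cox8a had means of 361, 149, 92.6 and 167 CPM in the controls. Cox4i2, the form of lung and of low oxygen, had 1.85 ± 0.81 CPM there, 2.65 ± 1.37 with doxorubicin and 2.91 ± 1.56 with doxorubicin + ADU-S100. The difference of 0.65 on the log2 scale (SE 0.57) was the highest of the nuclear members against control. Cox7a1, a form of heart and skeletal muscle, had 2.14 to 7.48 CPM. The muscle form Cox6a2, below the level set for members, had 41 to 59 counts in a library. Cox8b, Cox8c and Cox7b2 had 0 counts in all 9 libraries, which allows up to 3 counts in each, and Ndufa4l2, the hypoxia-linked relative of Ndufa4, had 14 to 85 counts.

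Complex V makes ATP, and its 17 nuclear members had medians of 0.34, 0.28 and 0.07. The group means of its catalytic head subunits differed little. Atp5a1, the alpha subunit, had 559, 546 and 599 CPM in the controls and 572, 562 and 554 CPM with doxorubicin + ADU-S100. With doxorubicin alone it had 449, 734 and 534 CPM, and that group held both its lowest and its highest library. Atp5b, the beta subunit, had 759 ± 52.4, 846 ± 163 and 813 ± 114 CPM in the 3 groups (SD, n = 3). Atp5k, a small membrane subunit, had a log2 fold change of 0.59 against control, with 38.3, 38.1 and 60.8 CPM in the controls and 98.1, 63.2 and 45.4 CPM with doxorubicin + ADU-S100. The groups of Atp5k overlapped.

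The nuclear members moved together from library to library, and the size of the shift followed the length of the mRNA. Of the 89, 58 were lowest in doxorubicin 1 and 23 in control 1, while 62 were highest in doxorubicin + ADU-S100 1 and 12 in doxorubicin 2. In doxorubicin + ADU-S100 1, the median log2 CPM of the 10 members with an mRNA of up to 500 bases lay 0.79 above their means over the libraries. It lay 0.62 above for the 33 members of 501 to 800 bases, 0.48 for the 17 of 801 to 1200, 0.27 for the 18 of 1201 to 2000 and 0.12 for the 9 of 2001 to 5000. In doxorubicin 1 the same medians were −0.59, −0.59, −0.51, −0.40 and −0.43. Long and short members thus deviated in the same direction in these libraries, the short ones by more. In doxorubicin + ADU-S100 3 the order was the reverse, at −0.21 for the shortest and 0.21 for the longest members.

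Other protein-coding genes of the same length, with cytosolic ribosomal proteins set aside, showed a pattern with length too, by amounts that differed between libraries. For 68 such genes of up to 500 bases the median deviation was 0.27 in doxorubicin + ADU-S100 1 and −0.22 in doxorubicin 1, where the 10 members of that length were at 0.79 and −0.59. In control 1 it was −0.29 against −0.62 for the members. In control 2 the 2 were close (−0.36 against −0.38). The other genes deviated further in control 3 (0.50 against 0.41), doxorubicin 2 (0.54 against 0.51) and doxorubicin + ADU-S100 3 (−0.34 against −0.21). They also did so in doxorubicin 3 (−0.10 against −0.08) and doxorubicin + ADU-S100 2 (0.21 against 0.16). For 315 such genes of 501 to 800 bases the median deviation was 0.47 in doxorubicin + ADU-S100 1 and −0.45 in doxorubicin 1. For 7100 genes of 2001 to 5000 bases it was −0.10 and 0.03, where the 9 members of that length were at 0.12 and −0.43. The fold changes followed: the 44 members of up to 809 bases had a median log2 fold change of 0.42 for the combination versus control and the 43 longer ones 0.29, beside 0.38 for 438 and 0.09 for 10005 other protein-coding genes, ribosomal ones included, on either side of 809 bases (the upper side ending at the length of the longest member). Most of the other genes above 809 bases were longer than 2000 bases, against 9 of the 43 members, so 0.29 and 0.09 are not matched for length. The part of mRNA length in the nuclear medians was not tested. Lengths are those of GENCODE transcripts and were known for 87 of the 89 members. Ndufb4b and Ndufb4c, near copies of Ndufb4, had none, and reads may be split among the 3 genes.

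**Figure D4:**
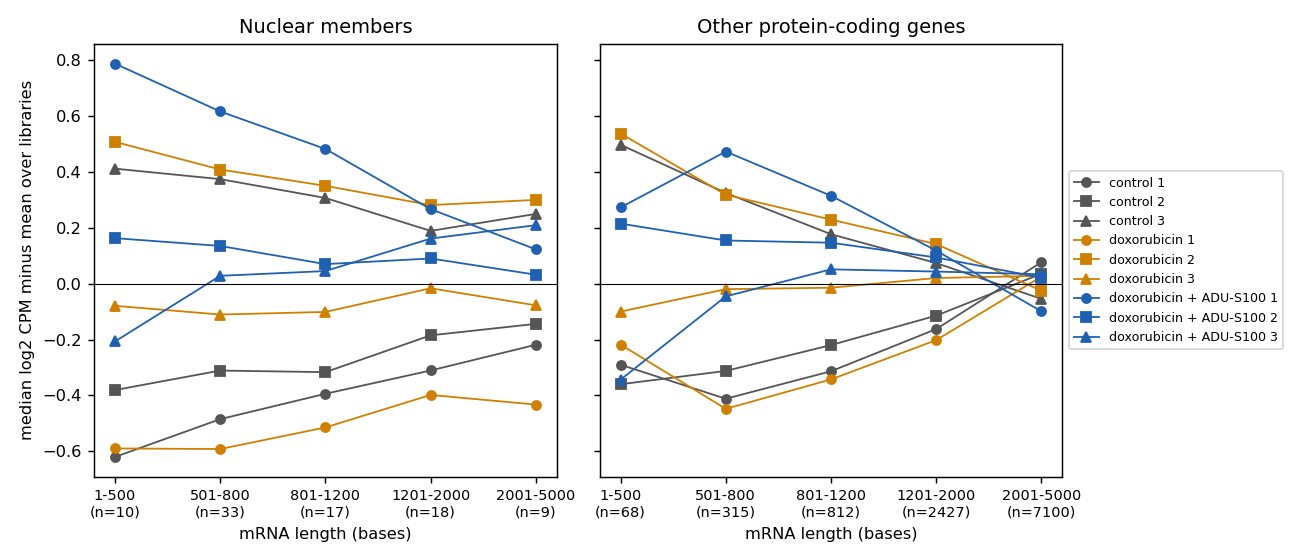
Median deviation of log2 CPM from the mean over the 9 libraries, by mRNA length in bases (number of genes in brackets), for the nuclear members (left) and for other protein-coding genes without cytosolic ribosomal proteins (right); 1 line per library, coloured by group. Lines lie further apart at short than at long mRNAs in both panels, from −0.62 to 0.79 among the shortest members, and among the longest mRNAs they meet near 0 in the right panel alone.

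Within the mitochondrial set the shares of the single genes also varied between libraries. COX1 made up 33.5% to 40.2% of the counts of the 13 genes and ND6 0.172% to 0.243%. The widest range was that of ATP8, at 3.15%, 3.17% and 3.06% in the controls. It was 3.11%, 2.32% and 2.99% with doxorubicin, and 1.24%, 3.57% and 1.88% with doxorubicin + ADU-S100. ATP8 counts were 0.133 of those of ATP6 in doxorubicin + ADU-S100 1 and 0.334 in control 2, although both are read from 1 transcript and share the 43 bases printed above. ND4L ran from 0.053 of ND4 in doxorubicin 2 to 0.107 in control 2. These are the shortest genes of the set with ND3, at 204, 297 and 348 bases, although ATP8 and ND4L each lie on a longer transcript. How the counter splits reads in shared bases is not stated. ND5, the longest at 1824 bases, also varied, and its share ran from 2.73% in doxorubicin 2 to 5.52% in control 1.

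**Figure D5:**
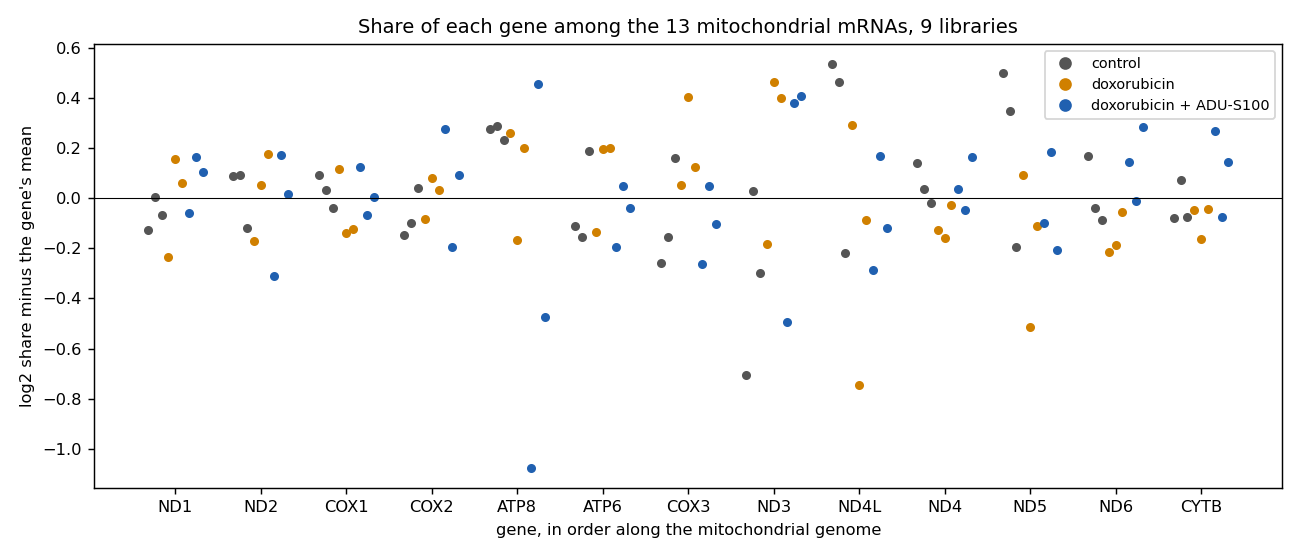
Log2 share of each gene in the counts of the 13 mitochondrial genes minus its mean over the 9 libraries, in genome order, 1 point per library coloured by group. COX1, ND1 and ND4 stay close to 0, while ATP8, ND3, ND4L and ND5 spread the most, with ATP8 lowest in 1 doxorubicin + ADU-S100 library (1.24%).

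The 2 mitochondrial ribosomal RNAs, which lie on the same genome but outside the members, gave 2.44 to 7.90 counts per 100 counts of mitochondrial mRNA. The libraries were made by selection of mRNA. The ratio was lowest in control 1 and highest in doxorubicin 2, the library with the lowest mitochondrial share. Transcription of the mitochondrial genome needs nuclear factors, and of 30 genes for mitochondrial transcription, replication and RNA upkeep 0 reached an unadjusted p under 0.05 by edgeR in any comparison, with medians of 0.08, 0.11 and −0.05. Tfam, which packs and transcribes mitochondrial DNA and was picked here after its values were seen, ranged 1.78-fold, from 18.2 CPM in doxorubicin 1 to 32.3 CPM in doxorubicin + ADU-S100 3. The library with the lowest Tfam had the third highest mitochondrial share, and a link between Tfam and that share was not tested. The 10 tested regulators of mitochondrial biogenesis had medians of 0.03, 0.05 and −0.02.

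Neighbouring pathways gave few small p-values, and 0 adjusted ones by edgeR. Of 41 assembly factors of the complexes outside the Nduf names, 1 had an unadjusted p under 0.05, in the combination versus control, where 4.44% of all genes tested did. This was Surf1, an assembly factor of complex IV, at 17.8, 16.5 and 20.3 CPM in the controls and 27.1, 22.8 and 24.7 CPM with doxorubicin + ADU-S100 (log2 fold change 0.45, SE 0.18, edgeR adjusted p = 0.948). Among 21 electron carriers and partners of the chain 1 likewise reached that level against control, and also against doxorubicin, where 2.75% of all genes tested did. This was Higd1a, a hypoxia-induced partner of complexes III and IV. Its CPM was 39.3, 57.8 and 53.3 in the controls, 44.6, 65.3 and 66.0 with doxorubicin and 93.4, 71.5 and 97.7 with doxorubicin + ADU-S100. The last group lay above all other libraries (log2 fold change 0.80, SE 0.23, edgeR adjusted p = 0.948 against control).

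Of 20 tested genes of the mitochondrial stress response, 2 had an unadjusted p under 0.05 against control, where 4.44% of all genes tested did and 4.39% were higher without overlap. Atf4, the transcription factor at the centre of this response, had 230, 269 and 277 CPM in the controls and 354, 329 and 366 CPM with doxorubicin + ADU-S100, without overlap (log2 fold change 0.44, SE 0.16, edgeR adjusted p = 0.948). Ddit3, which encodes CHOP, had 16.9, 23.3 and 17.5 CPM against 34.3, 24.6 and 33.2 CPM, also without overlap (adjusted p = 0.948 by edgeR). The 20 genes had median log2 fold changes of 0.34 against control, 0.32 against doxorubicin and 0.05 in doxorubicin versus control. By library, their median deviation was 0.03, −0.26 and 0.73 in doxorubicin + ADU-S100 1, 2 and 3, the last being the library with the highest fibroblast mean. For 18 genes of the tricarboxylic acid cycle, 21 of membrane transport and 11 of mitophagy the counts at an unadjusted p under 0.05 were 0 by edgeR in each comparison, and their medians against control were 0.06, 0.21 and 0.07.

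The genes of the cytosolic ribosome, mostly short mRNAs expressed at high levels, differed in the direction of the nuclear members. So did those of the mitochondrial ribosome. All 89 tested genes of the cytosolic ribosome were positive for the combination versus control (median log2 fold change 0.48), as were 76 of 78 genes of the mitochondrial ribosome (median 0.30). Those at an unadjusted p under 0.05 by edgeR numbered 1 and 3, at shares below the 4.44% of all genes tested. By library, the median deviation of the cytosolic ribosomal genes was lowest in control 1 (−0.56) and highest in doxorubicin + ADU-S100 1 (0.59), where that of the nuclear members was −0.45 and 0.52.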

How the data were processed

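Bulk RNA-seq libraries (9, in 3 groups of 3) were assigned to groups by their titles. According to the sample descriptions and the methods, the authors used Trimmomatic (0.38) for trimming, HISAT2 (2.1.0) for alignment to mm10, SAMtools (1.9) and, for counting, StringTie (2.1.3b). The deposited values are raw counts per gene, made from an mRNA-selected, stranded library kit. The strand setting of the counting is not stated, so ND5 and ND6, which overlap by 14 bases on opposite strands, may not be fully separated, nor near-identical nuclear copies. All value columns were mapped, and 0 genes lacked a name.

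Genes were tested by quasi-likelihood in edgeR (4.0.16, under R 4.3.3) with TMM scaling and filterByExpr, 1 model of all 9 libraries, two-sided, with Benjamini-Hochberg adjustment over all genes tested and a threshold of 0.05. Log2 CPM used a prior count of 2. Set medians and ratios were described without a test. The authors' own tool, DESeq2 (1.42.0), and limma-voom (3.58.1) were alternatives, with RLE scaling, other filters, scaling without mitochondrial and haemoglobin genes, fits of the compared groups only, the replicate block and the omission of each library. Leaving out the library with the highest fibroblast mean of each group was added after the data were seen. The members and lists were chosen with earlier results of these data known. Genes named are the 13 mitochondrial members, core and tissue-specific subunits, the nuclear members with the smallest p or most extreme fold change per comparison, and up to 3 genes a pathway list by smallest p. The scripts were tested on simulated data. With 3 against 3 libraries an exact permutation test cannot go below p = 0.1, and none is given. Coordinates and promoters are RefSeq on GRCm38.p6, and transcript lengths GENCODE. For the mitochondrial members the length is that of the RefSeq gene. The NRF1 motif was shortened by 1 letter at its end after a first search of the promoters.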

Additional observations from a re-analysis of the deposited data

How the results depend on the processing

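No member reached an adjusted p under 0.05 in any setting run (DESeq2, limma-voom with quality weights, RLE scaling, scaling without mitochondrial and haemoglobin genes, 2 other filters, the compared groups only, the replicate block, each library left out, and the added omission by fibroblast mean). At an unadjusted p under 0.05, edgeR gave 0 members in each comparison. For the combination versus control, limma-voom gave 12 (all nuclear), no filter 1 and the 2 compared groups alone 1. The omission by fibroblast mean gave 6 (all mitochondrial). For the combination versus doxorubicin the number was 1 by DESeq2 (nuclear), 17 by limma-voom (10 mitochondrial, 7 nuclear) and 13 with that omission (mitochondrial). For doxorubicin versus control it was 1 by limma-voom (nuclear) and 2 with that omission (mitochondrial). Of all genes, limma-voom put 10.7%, 9.03% and 5.34% at that level, and the omission by fibroblast mean 8.67%, 7.5% and 4.31%. DESeq2 put 5.45%, 3.32% and 1.03% there. Against control, no filter put 3.73% there and the 2 compared groups alone 3.65%. The cause was not tested.

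With single libraries left out the number ranged from 0 to 10, from 0 to 7 and from 0 to 1 in the same order (10 without control 3, 7 without doxorubicin 2 and 6 without doxorubicin 1, where 4.98%, 2.31% and 2.37% of all genes reached that level). The 6 were all mitochondrial, and the 10 and the 7 all nuclear. The mitochondrial median ranged from −0.76 to 1.16 against control, from −0.20 to 2.29 against doxorubicin and from −1.60 to −0.03 for doxorubicin versus control. The nuclear median ranged from 0.13 to 0.65, from 0.07 to 0.54 and from −0.19 to 0.35. The log2 ratio of mitochondrial to nuclear counts ranged from −0.83 to 0.56, from −0.07 to 1.57 and from −1.65 to −0.08. With the omission by fibroblast mean, the mitochondrial median was 1.61 against control, 2.73 against doxorubicin and −1.02 for doxorubicin versus control, and the log2 ratio 1.04, 2.21 and −1.17. That omission removed the library with the highest mitochondrial share from control and from doxorubicin, and the one with the lowest from the combination.

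Libraries with the same replicate number did not deviate together (correlations from −0.60 to 0.38), so the numbers were not read as pairs. With the replicate block 0 members were called, and the mitochondrial medians were −0.07, 0.98 and −1.09 and the nuclear ones 0.37, 0.32 and 0.06.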
